A study of Mus musculus with 6 samples.

Results

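The motile cilium is a beating hair on the surface of multiciliated airway cells. Genes of its axoneme, the microtubule core that bends, were followed in RNA sequencing libraries made from mouse alveolar epithelial type 2 cells, the surfactant-producing cells of the lung. Members were chosen by name: genes whose symbol begins with Dnah, Dnai, Dnal, Cfap, Rsph, Tekt or Spag, or with Ift and a digit, and 9 genes named singly as markers of ciliated cells (Foxj1, Ccdc153, Tppp3, Dynlrb2, Fam183b, Sec14l3, Mlf1, Pifo and Tmem212). This gave 86 of the 13931 genes in the deposited files, with 146 transcripts. The first 6 name families, 55 genes, are called motile axoneme genes here, and the 14 Ift genes encode intraflagellar transport proteins. The remaining members were 8 Spag genes and the 9 singly named genes.

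The mBLM group held 3 libraries from C57BL/6 mice exposed repeatedly to bleomycin (1 U/kg), a drug that breaks DNA and injures the lung. The sham group held 3 libraries from C57BL/6 mice exposed repeatedly to PBS. There was 1 mouse per library, and all 6 preparations carried the label of type 2 cells. The sources used here do not give age, sex, route, number and spacing of exposures, time of harvest or the method of cell isolation.

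The bending motors of a motile cilium are axonemal dyneins, built from heavy chains (Dnah genes) with intermediate and light chains (Dnai, Dnaic and Dnal genes) and held in outer and inner arms on the doublet microtubules. Radial spokes (Rsph genes) and a central pair of microtubules control the arms, tektins (Tekt genes) lie inside the doublets, and CFAP proteins fill many of these places. Intraflagellar transport carries building blocks along the shaft of motile cilia and also of the single, non-motile primary cilium that many other cells bear, so Ift genes are not restricted to multiciliated cells. In the lung, motile cilia belong to multiciliated cells of the airways, and the transcription factor Foxj1 drives their program.

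Motile axoneme genes were mostly higher in mBLM than in sham, while Ift genes were not. Values are FPKM (fragments normalised to transcript length and library size), which allow levels to be compared between genes. Log2 differences are of log2(FPKM + 1), mBLM minus sham, with the standard error of the limma fit over 12326 genes and a Benjamini-Hochberg adjusted p, called at 0.05. Genes had to reach 1 FPKM in at least 3 libraries to be tested, which 81 of the 86 members did: 51 motile axoneme genes, all 14 Ift genes, 7 Spag genes and all 9 singly named genes. Of the 51 motile axoneme genes 13 rose and none fell, against 15.2% of all tested genes that rose and 7.34% that fell (22.5% called in either direction). At an unadjusted limma p under 0.05, 33 of the 51 were higher in mBLM and none lower, against 23.0% and 13.8% of all tested genes. Their median log2 difference was 0.75, against 0.09 over all tested genes. Among the 14 Ift genes 1 rose and none fell, with a median of 0.00. None of the 7 tested Spag genes passed, 3 had an unadjusted limma p under 0.05, and their median was 0.54, while 1 of the 9 singly named genes rose and their median was 0.82. A gene that reached 1 FPKM in the mBLM libraries alone, as Dnah8 and Dnah7b did, passed the filter through the group in which it was high, so its call is not support. Without such genes 11 of 49 motile axoneme genes rose, against 11.3% of all other tested genes. In these bulk libraries, more cells of a type and more RNA per cell cannot be told apart.

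**Figure D1:**
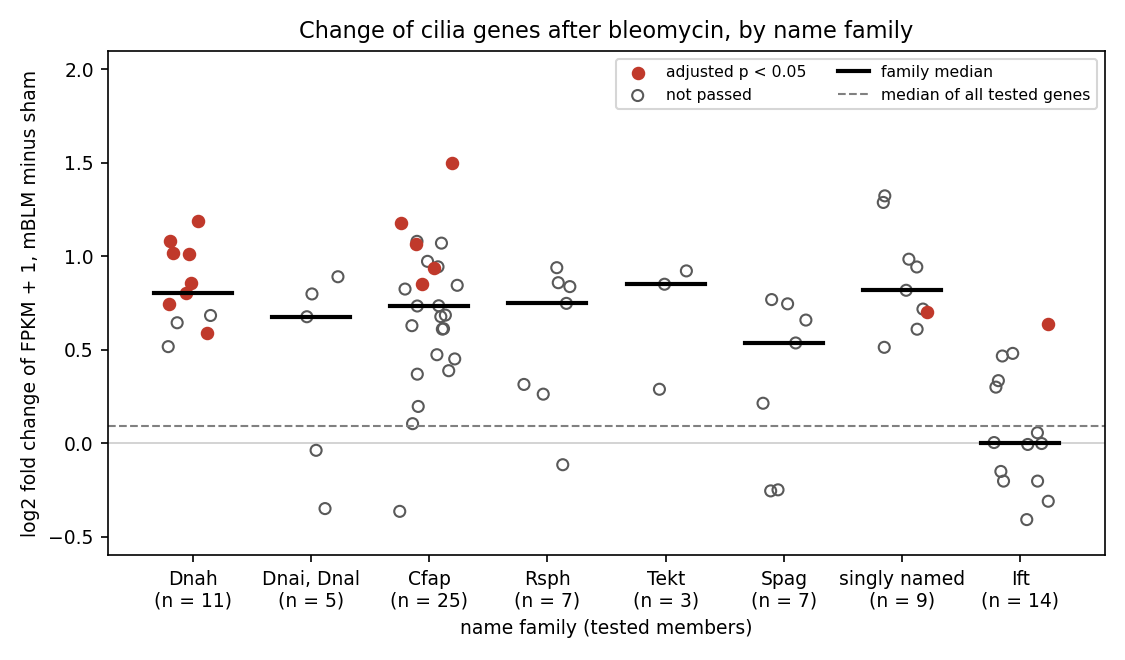
Log2 fold change of FPKM + 1 (mBLM minus sham, vertical axis) of each of the 81 tested members, grouped by name family along the horizontal axis. Filled points passed an adjusted p of 0.05, bars are family medians and the dashed line is the median of all tested genes, 0.09. The Ift median lies at 0.00, whereas the medians of the dynein, Cfap, Rsph and Tekt families lie between 0.68 and 0.85.

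The motile axoneme call count depended on single libraries. It was 3 of 51 without mBLM library 1, 3 without mBLM library 2 and 27 without mBLM library 3. Of all 12326 tested genes, 1330, 1317 and 1757 rose in these fits. Without mBLM library 1 or 2 the motile axoneme share thus lay below that of all tested genes, and without mBLM library 3 above it. Leaving out sham library 1, 2 or 3 gave 6, 4 and 8 motile axoneme calls, against 1437, 1381 and 1325 rises among all tested genes. None of the motile axoneme calls in these fits was a fall. Direction was steadier than significance. Between 46 and 49 of the 51 tested motile axoneme genes were higher in mBLM in each of these fits and under both other scalings. With all libraries and no scaling 47 were higher, against 6918 of all 12326 tested genes. Members shared an order of libraries, as given below, so their signs are not separate observations. Scaling each library to the same median moved the median log2 difference of all tested genes to -0.07, and quantile normalization moved it to -0.08. The motile axoneme median was then 0.63 and 0.48, with 10 and 7 of the 51 genes called. Under these scalings 1475 and 1431 of all 12326 tested genes rose. The motile axoneme share with quantile normalization was near that of all tested genes. The only motile axoneme gene that changed sign under these scalings was Cfap97 (0.10 without scaling).

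Promoters of 5 members are given because they hold the motifs known for the ciliary program: the X-box, bound by RFX factors, and the forkhead motif, the class of site bound by Foxj1. RefSeq windows (GRCm38.p6, the assembly behind mm10) from 250 bases before to 50 bases after the start were found for 71 of the 86 members, 80 windows in all. A single X-box arm, GTTGCC on either strand, stood in 18 of 53 windows of motile axoneme genes, 5 of 11 of Ift genes, 5 of 8 of singly named genes and 3 of 8 of Spag genes, against 12.5% of all 32851 promoters. The full X-box searched, GTTNCC and GGNAAC with 2 free bases between them, which can contain the arm, stood in 1 of the 80 windows, that of Pifo, against 0.451% of all promoters. This pattern is strict. Forms with other bases in an arm or another spacing were not searched, so a window without this match can still hold 2 arms. The forkhead motif TGTTTAC on either strand stood in 3 of 53 windows of motile axoneme genes, against 3.65% of all promoters. It stood in 1 of 8 windows of singly named genes and in none of the 11 of Ift genes or the 8 of Spag genes. Counts this small show no contrast between the classes. A match is a string of letters and not a shown binding site, and RefSeq starts need not be those of the deposited transcripts. The deposited start of Ift140, 25016391, and the outermost deposited start of Cfap43, 47919299, lie outside the windows given here. Matches are in capitals below, and each window is read 5′ to 3′ on the strand of its gene: Cfap43 at chr19:47837312-47837611 (minus strand) with the forkhead motif, Cfap44 at chr16:44394549-44394848 (plus strand) with the arm at 2 places, Dnah7b at chr1:46066603-46066902 (plus strand) and Ift140 at chr17:25015836-25016135 (plus strand) with the arm, and Pifo at chr3:106001448-106001747 (minus strand) with the full X-box.
Cfap43: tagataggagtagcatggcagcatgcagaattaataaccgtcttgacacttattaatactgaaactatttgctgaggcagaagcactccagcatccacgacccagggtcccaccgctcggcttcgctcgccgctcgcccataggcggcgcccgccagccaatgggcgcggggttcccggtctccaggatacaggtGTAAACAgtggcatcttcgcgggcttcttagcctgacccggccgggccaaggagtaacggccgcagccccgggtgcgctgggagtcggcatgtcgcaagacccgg
Cfap44: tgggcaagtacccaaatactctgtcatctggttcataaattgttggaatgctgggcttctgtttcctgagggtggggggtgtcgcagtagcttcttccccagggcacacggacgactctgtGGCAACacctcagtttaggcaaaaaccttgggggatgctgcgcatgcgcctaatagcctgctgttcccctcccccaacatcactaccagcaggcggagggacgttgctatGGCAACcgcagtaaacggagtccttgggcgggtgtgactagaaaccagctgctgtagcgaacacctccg
Dnah7b: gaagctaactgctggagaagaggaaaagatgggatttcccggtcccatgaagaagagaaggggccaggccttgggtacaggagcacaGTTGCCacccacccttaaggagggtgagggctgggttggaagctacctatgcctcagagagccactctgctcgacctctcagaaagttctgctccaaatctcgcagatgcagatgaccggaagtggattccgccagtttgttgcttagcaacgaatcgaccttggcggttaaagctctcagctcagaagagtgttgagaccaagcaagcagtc
Ift140: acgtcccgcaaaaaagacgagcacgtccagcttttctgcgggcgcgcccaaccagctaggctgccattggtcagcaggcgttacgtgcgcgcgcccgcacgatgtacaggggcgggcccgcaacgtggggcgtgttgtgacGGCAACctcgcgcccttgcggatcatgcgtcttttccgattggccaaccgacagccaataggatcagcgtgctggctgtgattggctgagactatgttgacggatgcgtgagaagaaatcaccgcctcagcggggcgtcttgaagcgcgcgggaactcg
Pifo: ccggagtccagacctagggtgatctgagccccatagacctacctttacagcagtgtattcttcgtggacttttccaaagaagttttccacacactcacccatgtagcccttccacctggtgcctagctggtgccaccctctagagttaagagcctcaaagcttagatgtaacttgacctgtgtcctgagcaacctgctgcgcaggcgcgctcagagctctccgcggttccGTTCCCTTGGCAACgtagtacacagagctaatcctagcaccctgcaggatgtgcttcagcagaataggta

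Dynein heavy chains, the motors of the axoneme, held most of the calls. Of 13 Dnah genes 11 were tested, 8 rose and none fell, or 6 of 9 without Dnah8 and Dnah7b, and all 11 were higher in mBLM under every scaling. Dnah12, an inner arm chain and the most abundant of the family, measured 14.6, 12 and 9.84 FPKM in mBLM libraries 1, 2 and 3, against 4.85, 3.15 and 6.65 FPKM in sham libraries 1, 2 and 3. All 3 mBLM values lay above the highest sham value, and the log2 difference was 1.19 ± 0.27 (limma adjusted p = 0.0237). Dnah6, another inner arm chain, measured 11, 10.9 and 8.55 FPKM in mBLM, against 4.47, 3.81 and 5.24 FPKM in sham, again without overlap, and rose by 1.02 ± 0.18 (limma adjusted p = 0.0107). Dnah3, of the inner arms as well, averaged 8.29 ± 0.429 FPKM in mBLM and 3.69 ± 1.1 FPKM in sham (SD, n = 3 each), a rise of 1.01 ± 0.22 (limma adjusted p = 0.0193). Of the outer arm chains, Dnah5 measured 6.38, 5.44 and 4.34 FPKM in mBLM, against 2.3, 2.13 and 3.15 FPKM in sham, a rise of 0.86 ± 0.21 (limma adjusted p = 0.0287). Dnah9, also of the outer arms, averaged 4.15 ± 0.586 FPKM in mBLM and 1.96 ± 0.428 FPKM in sham (SD, n = 3 each), a rise of 0.80 ± 0.19 (limma adjusted p = 0.0284). The groups did not overlap for any of these chains. Dnah2, an inner arm chain, measured 2.88, 2.88 and 1.82 FPKM in mBLM, against 1.01, 0.902 and 1.35 FPKM in sham, a rise of 0.75 (limma adjusted p = 0.0413). The remaining 3 tested heavy chains, Dnah11, Dnah1 and Dnah10, had log2 differences of 0.68, 0.52 and 0.64 and did not pass (limma adjusted p = 0.0585, 0.0656 and 0.111). Of these, Dnah10 overlapped between the groups, through mBLM library 3.

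Dnah8 stood apart within the family by its ratio. This outer arm heavy chain, known in mouse for its role in sperm (ENSMUSG00000033826.9, mm10 chromosome 17, 30624354 to 30875264), measured 1.69, 1.52 and 1.34 FPKM in mBLM libraries 1, 2 and 3, against 0.152, 0.206 and 0.206 FPKM in sham libraries 1, 2 and 3. Every mBLM value exceeded every sham value, the ratio of the group means was 8.07, and the difference on the log2(FPKM + 1) scale, which compresses low genes, was 1.08 ± 0.15 (limma adjusted p = 0.00348). Among the other 12 heavy chains that ratio ran between 1.77 for Dnah1 and 2.58 for Dnah7c. Since Dnah8 was tested only because it reached 1 FPKM in mBLM, its p is a description, and its level in mBLM stayed low beside that of Dnah12. Dnah7a, Dnah7b and Dnah7c are near-identical copies on chromosome 1 that can share reads, so their split is uncertain. Their mBLM means were 0.831, 1.54 and 1.32 FPKM, against sham means of 0.376, 0.686 and 0.513 FPKM, every mBLM value of each copy exceeded its sham values, and only Dnah7b reached the filter (log2 difference 0.59, limma adjusted p = 0.0455).

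Among the heavy chains that reached 1 FPKM in sham as well, the call of Dnah6 held without any 1 library (limma adjusted p up to 0.0445). It was lost when the highest transcript was taken in place of the sum. The call of Dnah3 was lost without mBLM library 1 or 2 (limma adjusted p up to 0.0649). Those of Dnah5 and Dnah12 were lost without mBLM library 1 or 2 or sham library 1 or 2 (up to 0.0877 and 0.0777), and that of Dnah9 without mBLM library 1 or 2 or sham library 2 or 3 (up to 0.0925). Dnah2, and Dnah7b of the mBLM-only pair, passed only with all libraries or without mBLM library 3 (up to 0.12 and 0.127 otherwise).

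None of the 5 smaller dynein chain genes among the members, chosen by name, passed in limma, and 3 had an unadjusted p under 0.05. Dnali1, an inner arm light intermediate chain, measured 18.9, 9.01 and 9.96 FPKM in mBLM, against 5.26, 6.2 and 6.59 FPKM in sham. Its groups did not overlap, but mBLM library 1 was far above the other mBLM libraries, and the log2 difference of 0.89 ± 0.29 had a limma adjusted p of 0.0691. Dnaic1 and Dnaic2, the intermediate chains of the outer arm, had log2 differences of 0.80 and 0.68 (limma adjusted p = 0.0736 and 0.136). The light chain genes Dnal1 and Dnal4 lay on the other side of 0: Dnal4 averaged 12.1 ± 2.1 FPKM in mBLM and 15.7 ± 3.6 FPKM in sham (SD, n = 3 each), a log2 difference of -0.35 ± 0.22 (limma adjusted p = 0.29), and Dnal1 differed by -0.04.

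Of 25 Cfap genes, all tested, 5 rose, none fell and 20 did not pass. The share that rose, 20.0%, was near the 15.2% of all tested genes. Cfap43 (ENSMUSG00000044948.16, mm10 chromosome 19, 47737561 to 47919299) had the smallest adjusted p of all 81 tested members. Its protein forms, with that of its partner Cfap44, a complex that tethers an inner arm dynein to the doublet. Cfap43 measured 29.5, 29.8 and 23.9 FPKM in mBLM libraries 1, 2 and 3, against 10.3, 8.74 and 8.43 FPKM in sham libraries 1, 2 and 3. The lowest mBLM value was above the highest sham value by more than the range within either group, and the log2 difference was 1.50 ± 0.16 (limma adjusted p = 0.0013, at most 0.00829 without any 1 library). Cfap44 measured 12.8, 10.4 and 8.49 FPKM in mBLM, against 4.91, 4.15 and 5.98 FPKM in sham, also without overlap, and rose by 0.94 ± 0.21 (limma adjusted p = 0.0226). Cfap100, an inner arm regulator first known from algae, rose by 1.06, Cfap52, a protein of the doublet lumen, by 1.18, and Cfap54, of the central pair, by 0.85. Calls for Cfap44 and Cfap100 were lost without mBLM library 1 or 2 or sham library 1 or 2 (limma adjusted p up to 0.070 and 0.0778), and those of Cfap52 and Cfap54 without any 1 library but mBLM library 3 (up to 0.118 and 0.0915).

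Among the 20 Cfap genes that did not pass, Cfap20 and Cfap36 had the highest mean levels over all 6 libraries. Cfap20, which also has a role outside motile cilia, measured 25, 27.6 and 25.2 FPKM in mBLM, against 41.1, 25.7 and 35.9 FPKM in sham, a log2 difference of -0.36 ± 0.20 (limma adjusted p = 0.237). It was the only Cfap gene lower in mBLM by its mean log2 value, joined by Cfap97 under both other scalings. Cfap36 averaged 20.7 ± 5.47 FPKM in mBLM and 17.6 ± 2.07 FPKM in sham (SD, n = 3 each), and its groups overlapped. The other 18 had log2 differences between 0.10 for Cfap97 and 1.08 for Cfap161, all positive.

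Further Cfap genes short of the threshold are given by their place in the axoneme, and the rest follow at the end. Of those whose proteins lie on the inner wall of the doublets, Cfap161 measured 12.2, 8.39 and 5.02 FPKM in mBLM, against 4.08, 1.86 and 4.42 FPKM in sham, Cfap53 averaged 10.5 ± 4.4 FPKM in mBLM and 4.21 ± 0.762 FPKM in sham and Cfap45 averaged 10.7 ± 3.57 FPKM in mBLM and 4.94 ± 1.63 FPKM in sham (SD, n = 3 each). None of these overlapped between the groups, and their limma adjusted p were 0.0829, 0.0664 and 0.0781. Cfap126, of the same wall, measured 27, 20.7 and 9.0 FPKM in mBLM, against 13, 5.87 and 7.89 FPKM in sham, with mBLM library 3 inside the sham range (limma adjusted p = 0.173). Of the central pair genes, Cfap46 came closest to the threshold, with 4.88, 4.9 and 3.83 FPKM in mBLM, against 2.94, 1.85 and 2.59 FPKM in sham (limma adjusted p = 0.0503). Cfap74 and Cfap221, also of the central pair, had log2 differences of 0.61 and 0.37, without overlap. Of those at the base of the radial spokes, Cfap206 measured 18.8, 17.2 and 9.37 FPKM in mBLM, against 9.11, 6.15 and 7.9 FPKM in sham, without overlap, and Cfap61 had a log2 difference of 0.45 with overlap. Cfap57 and Cfap73, of the inner arm region, had log2 differences of 0.82 and 0.73, both without overlap (limma adjusted p = 0.0622 and 0.0883). The rest, Cfap157, Cfap58, Cfap69, Cfap70 and Cfap77, overlapped between the groups, with log2 differences of 0.68, 0.74, 0.63, 0.47 and 0.61. Cfap99 did not overlap (0.39). Of all 25 Cfap genes, 15 were without overlap and higher in mBLM, against 27.2% of all tested genes.

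Among the 37 members listed with more than 1 transcript, Cfap44 was the only member in which a transcript's share left a gap of more than 5 percentage points between the groups, a choice made after the values were seen. Transcript Cfap44-201, whose start at 44394799 on chromosome 16 (mm10) is the start within the promoter window printed above, took 100%, 99.5% and 100% of the gene's FPKM in mBLM libraries 1, 2 and 3, against 49.9%, 66.2% and 69.8% in sham libraries 1, 2 and 3. Cfap44-001, which starts downstream at 44401421, was listed at 0, 0.050 and 0 FPKM in mBLM, against 2.46, 1.41 and 1.81 FPKM in sham. Cfap44-201 itself measured 12.8, 10.4 and 8.49 FPKM in mBLM, against 2.45, 2.75 and 4.18 FPKM in sham. A listed 0 can be a failed split of reads between overlapping isoforms, so these shares are a description without a test.

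None of the 7 radial spoke genes or 3 tested tektin genes passed in limma, and 3 spoke genes and 1 tektin gene had an unadjusted p under 0.05, all higher in mBLM. Rsph1, a spoke head protein and the motile axoneme gene with the highest mean in mBLM (Cfap20 had the highest in sham), measured 49, 44.2 and 22.9 FPKM in mBLM libraries 1, 2 and 3, against 24.6, 12.9 and 20.5 FPKM in sham libraries 1, 2 and 3. Here mBLM library 3 lay below sham library 1, so the groups overlapped, and the log2 difference of 0.94 ± 0.35 had a limma adjusted p of 0.105, or 0.0348 without mBLM library 3. Rsph4a, of the spoke head, measured 6.23, 5.72 and 3.03 FPKM in mBLM, against 2.41, 1.68 and 2.75 FPKM in sham, and Rsph10b measured 10.6, 10.1 and 5.47 FPKM in mBLM, against 4.6, 3.09 and 5.09 FPKM in sham. Neither overlapped between the groups, and neither passed (limma adjusted p = 0.0749 and 0.0781). Rsph9, also of the spoke head, measured 24.2, 20.5 and 9.47 FPKM in mBLM, against 14.3, 12 and 13.8 FPKM in sham, with mBLM library 3 below every sham library. Rsph3a, of the spoke stalk, and its near-identical copy Rsph3b, which can share reads with it, had log2 differences of 0.26 and -0.12. Tekt1, a tektin of the doublet lumen, measured 13.9, 14.7 and 9.05 FPKM in mBLM, against 8.19, 4.52 and 5.85 FPKM in sham. Its groups did not overlap, and its limma adjusted p was 0.0518 (log2 difference 0.92 ± 0.27). Tekt4 and Tekt2 had log2 differences of 0.85 and 0.29, both with overlap. Tekt3 and Tekt5 stayed below 1 FPKM in every library and were not tested.

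The singly named ciliated cell genes were all higher in mBLM by their log2 means, in every alternative fit, but 8 of 9 did not pass. Foxj1 (ENSMUSG00000034227.7, mm10 chromosome 11, 116330704 to 116335399) measured 53.3, 59.1 and 32.2 FPKM in mBLM libraries 1, 2 and 3, against 35.6, 19.1 and 19.8 FPKM in sham libraries 1, 2 and 3. Its lowest mBLM value lay below sham library 1, and its log2 difference was 0.94 ± 0.33 (limma adjusted p = 0.084). Without mBLM library 3 the log2 difference was 1.20 and without sham library 1 it was 1.22, and in both fits Foxj1 passed (limma adjusted p = 0.045 and 0.0475). Sec14l3, a lipid-binding protein of ciliated cells, measured 168, 146 and 132 FPKM in mBLM libraries 1, 2 and 3, against 87.3, 81.8 and 103 FPKM in sham libraries 1, 2 and 3. It was the gene of the 9 that rose, by 0.70 ± 0.17 (limma adjusted p = 0.0306), and the call was lost without mBLM library 1 or 2 or sham library 1 or 2 (up to 0.0933).

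Tppp3, a tubulin-binding protein, was the most abundant member, with 256, 233 and 142 FPKM in mBLM, against 211, 123 and 72.7 FPKM in sham. The groups overlapped widely (log2 difference 0.72 ± 0.42, limma adjusted p = 0.27). Tmem212 had the largest log2 difference of the 9, 1.32 ± 0.57, on values of 73.3, 55 and 18.3 FPKM in mBLM, against 27.7, 10.3 and 14.8 FPKM in sham, and mBLM library 3 lay within the sham range (limma adjusted p = 0.145). Fam183b, a protein of the doublet lumen, measured 55.4, 46.5 and 18.8 FPKM in mBLM, against 16.5, 11.7 and 15.4 FPKM in sham, without overlap, a log2 difference of 1.29 ± 0.40 (limma adjusted p = 0.0631). Ccdc153, Pifo, Mlf1 and the dynein light chain gene Dynlrb2 had log2 differences of 0.98, 0.82, 0.61 and 0.51, with mBLM library 3 below the highest sham library for each.

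**Figure D2:**
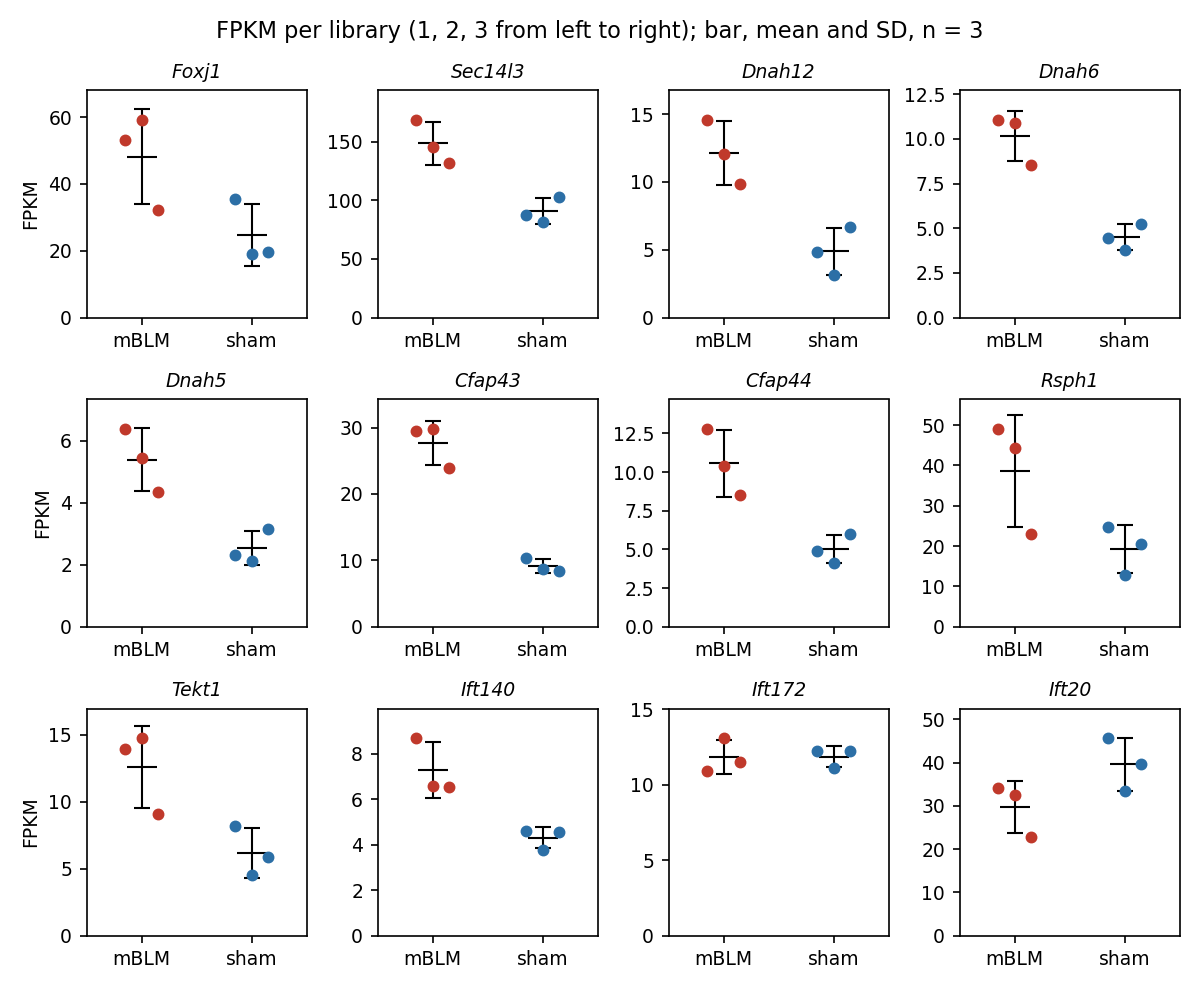
FPKM of 12 members in each library, with mBLM on the left and sham on the right of each panel (vertical axes start at 0; points are libraries 1, 2 and 3, bars are mean and SD). Cfap43, Dnah6, Dnah12 and Sec14l3 separate the groups, while Foxj1 and Rsph1 overlap through mBLM library 3, and Ift172 and Ift20 are not higher in mBLM as a group.

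Among the 14 Ift genes, log2 differences ran between -0.41 and 0.64. Ift140, a subunit of the IFT-A complex that returns cargo to the cell body (ENSMUSG00000024169.15, mm10 chromosome 17, 25016391 to 25099487), measured 8.69, 6.59 and 6.55 FPKM in mBLM libraries 1, 2 and 3, against 4.6, 3.77 and 4.55 FPKM in sham libraries 1, 2 and 3. All mBLM values exceeded all sham values, the log2 difference was 0.64 ± 0.18 (limma adjusted p = 0.0486), and the call was lost without any 1 library (limma adjusted p 0.0668 to 0.134) and with either other scaling. The other IFT-A members by name, Ift122 and Ift43, had log2 differences of -0.15 and -0.20. Within IFT-B, the complex that carries cargo towards the tip, Ift20, the most abundant Ift gene, measured 34.1, 32.4 and 22.9 FPKM in mBLM, against 45.7, 33.4 and 39.8 FPKM in sham, and the groups overlapped (log2 difference -0.41 ± 0.21, limma adjusted p = 0.21). Ift172 measured 10.9, 13.1 and 11.5 FPKM in mBLM, against 12.3, 11.1 and 12.2 FPKM in sham, a log2 difference of -0.01 ± 0.15. Ift52, Ift74, Ift88 and Ift57 had log2 differences between 0.30 and 0.48, and Ift22, Ift80, Ift27, Ift46 and Ift81 between -0.31 and 0.06, none of which passed. In all, 7 Ift genes were higher and 7 lower in mBLM, or 5 and 9 with either other scaling.

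Set side by side within each library, the mean log2(FPKM + 1) over all 55 motile axoneme genes was 3.00, 2.91 and 2.45 in mBLM libraries 1, 2 and 3, against 2.31, 1.87 and 2.20 in sham libraries 1, 2 and 3. Over the 14 Ift genes the mean was 3.61, 3.58 and 3.24 in mBLM, against 3.55, 3.22 and 3.45 in sham. Ift means thus overlapped between the groups, and motile axoneme means did not. The motile axoneme mean minus the Ift mean was -0.61, -0.67 and -0.79 in mBLM, against -1.23, -1.35 and -1.25 in sham, a difference between the groups of 0.59 with within-group SDs of 0.0915 in mBLM and 0.0664 in sham (n = 3 each). Subtracting the Ift mean narrowed the spread of the motile axoneme means within both groups, whose SDs were 0.294 in mBLM and 0.233 in sham. These are descriptions of a chosen list and carry no test.

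**Figure D3:**
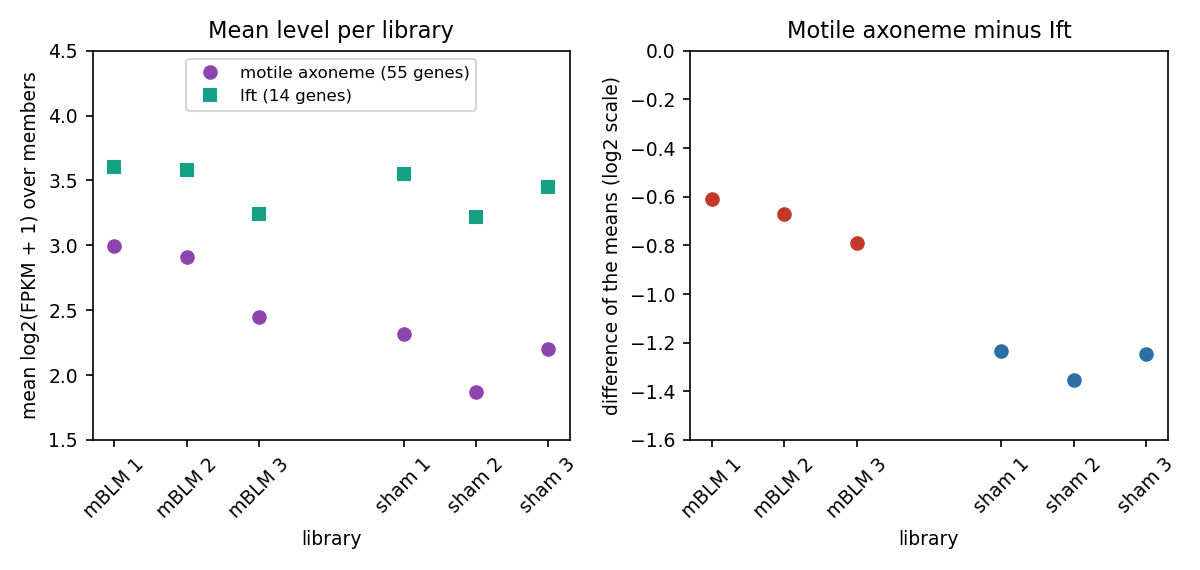
Left, mean log2(FPKM + 1) over the 55 motile axoneme genes (circles) and the 14 Ift genes (squares) in each library; right, the difference of these means (motile axoneme minus Ift). The difference lies between -0.79 and -0.61 in mBLM and between -1.35 and -1.23 in sham.

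The members also shared an order of libraries within each group. The lowest mBLM value fell in mBLM library 3 for 45 of 51 tested motile axoneme genes, 12 of 14 Ift genes and all 9 singly named genes, against 40.6% of all tested genes. The lowest sham value fell in sham library 2 for 45 of 51, 12 of 14 and 8 of 9, against 39.8% of all tested genes. Without overlap and with all mBLM libraries higher were 30 of the 51 tested motile axoneme genes (33 of all 55) and 2 of the 14 Ift genes, and none was without overlap and lower. Over all tested genes, 27.2% were without overlap and higher and 16.4% without overlap and lower.

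The Spag family is a family by name only. Spag6l, Spag16 and Spag17 encode central pair proteins, and Spag17 measured 4.96, 4.44 and 3.07 FPKM in mBLM, against 2.18, 1.44 and 2.45 FPKM in sham, without overlap (log2 difference 0.77 ± 0.23, limma adjusted p = 0.0553). Spag6l measured 8.68, 8.15 and 6.85 FPKM in mBLM, against 5.98, 4.02 and 4.04 FPKM in sham, also without overlap (log2 difference 0.66 ± 0.20, limma adjusted p = 0.060). Spag16 measured 3.24, 9.64 and 5.02 FPKM in mBLM, against 4.2, 2.41 and 4.03 FPKM in sham, with mBLM library 1 inside the sham range. Spag9, a scaffold of signalling and motor proteins in many cells, measured 16.4, 21 and 20.6 FPKM in mBLM, against 22.6, 23.6 and 23 FPKM in sham, and Spag7 measured 25.1, 22.8 and 19.8 FPKM in mBLM, against 27.6, 25.6 and 27.9 FPKM in sham. Both were lower in every mBLM library than in any sham library, and neither passed (log2 differences of -0.25 and -0.26, limma adjusted p = 0.286 and 0.265). Spag8, of the doublet lumen, and Spag1, a factor of dynein assembly, had log2 differences of 0.75 and 0.21 and did not pass (limma adjusted p = 0.0634 and 0.423). Spag5, of the mitotic spindle, averaged 1.06 ± 0.597 FPKM in mBLM and 0.35 ± 0.215 FPKM in sham (SD, n = 3 each) and was below the filter.

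Genes of the same machinery that are not members were read from lists chosen by function. The list headed ruler, nexin link and central pair also held genes of other parts of the axoneme. Of its 27 tested genes, members left out, 5 rose and none fell, a share of 18.5% near the 15.2% of all tested genes, with a median log2 difference of 0.84. Among them Hydin, a central pair protein, measured 4.02, 3.9 and 2.98 FPKM in mBLM, against 1.84, 1.78 and 2.03 FPKM in sham (log2 difference 0.68 ± 0.17, limma adjusted p = 0.0337). Efhb and Spef2 rose by 0.65 and 0.84, and Wdr78 and Dydc2 by 0.82 and 1.01. Of 14 tested genes of dynein assembly and docking 2 rose, a share of 14.3%, Armc4 (a docking factor, 0.88) and Ccdc103 (0.61, which reached 1 FPKM in mBLM libraries alone and so passed the filter through them), with a median of 0.69. Of 26 tested genes of the retrograde motor, kinesin-2, further IFT subunits and the BBSome, a cargo adaptor of cilia, 2 rose and none fell, a share of 7.69%, with a median of 0.08. These were Traf3ip1, an IFT-B subunit (0.89), and the kinesin subunit Kif3b (0.52). All 9 calls were lost when single libraries were left out. Calls of Ccdc103, Wdr78 and Kif3b were lost without any 1 library, those of Armc4, Hydin, Efhb, Spef2 and Traf3ip1 without any but mBLM library 3, and that of Dydc2 without any but sham library 1 (limma adjusted p up to 0.128 over the 9).

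Regulators of multiciliation were tested beside Foxj1. Of 12 tested regulators other than Foxj1, 1 rose and none fell, a share of 8.33% against 15.2% of all tested genes. By log2 difference 10 were higher and 2 lower in mBLM. The call was that of the centriole protein gene Cep152 (0.72, limma adjusted p = 0.032, lost without any 1 library but sham library 3, up to 0.0919). Myb, a transcription factor of this program and of blood cell progenitors, measured 8.95, 7.84 and 4.97 FPKM in mBLM, against 3.66, 1.87 and 4.08 FPKM in sham, and Trp73 measured 5.15, 5.37 and 3.49 FPKM in mBLM, against 3.31, 2.01 and 2.38 FPKM in sham, both short of the threshold (limma adjusted p = 0.0613 and 0.0801). Rfx2 and Rfx3, factors of the X-box, had log2 differences of -0.01 and 0.31, and Gmnc, which starts the program, stayed below the filter. Ccno and E2f5 had log2 differences of 0.02 and -0.55 and did not pass. Cytoplasmic dynein 1, the motor of general transport, had no rise among 12 tested genes and 1 fall, Dynll2 (-0.75), a light chain shared with other complexes, whose call was lost without mBLM library 2 or sham library 2 or 3 (limma adjusted p up to 0.0612).

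Markers of other cells moved with the groups as well, and their part in the rise of motile axoneme genes was not tested. The 8 listed type 2 cell markers were present in every library and all fell, with a summed level of 3065 to 7145 FPKM in mBLM, against 16914 to 24824 FPKM in sham. The call of Sftpc was lost without any 1 library but mBLM library 3 (limma adjusted p up to 0.0968) and that of Etv5 without mBLM library 2 or 3 or sham library 1 or 2 (up to 0.114). All 8 leukocyte and all 7 endothelial markers rose, to sums of 761 to 1237 and 277 to 518 FPKM in mBLM, against 20.1 to 35.4 and 26.1 to 28.5 FPKM in sham, where the endothelial gene Cldn5 was listed at 0 in all 3 libraries. Cldn5 and the leukocyte genes Lck, Cd3e and Itgam passed the filter through mBLM alone, as did the basal cell genes Aqp3 and Dapl1. Of 8 club cell markers, secretory neighbours of ciliated cells in the airway, 2 rose (Bpifa1 by 1.88 and Scgb3a1 by 1.31) and none fell, and their sum was 2886 to 4337 FPKM in mBLM, against 2896 to 10752 FPKM in sham. The call of Scgb3a1 was lost without mBLM library 1 or 2 (limma adjusted p up to 0.0727). Of 6 type 1 cell markers Ager fell (-1.24) and none rose. Hopx was higher in every mBLM library, with 138, 121 and 97 FPKM in mBLM, against 75.7, 71.7 and 17.1 FPKM in sham (log2 difference 1.35, limma adjusted p = 0.133), and Rtkn2 had a log2 difference of 0.36. Emp2, Aqp5 and Pdpn had -2.49, -0.96 and -0.07 and did not pass, and the sum of the 6 was 242 to 451 FPKM in mBLM, against 511 to 660.2 FPKM in sham. Among 7 basal cell markers, Krt5, Krt14, Trp63 and Ngfr did not reach the filter, while Aqp3 rose by 1.88 and Dapl1 was listed at 0 in all 3 sham libraries and at 15.1, 12.1 and 4.05 FPKM in mBLM. The 9 singly named ciliated cell genes summed to 421 to 775 FPKM in mBLM, against 296 to 476 FPKM in sham, none was at 0 in any library, and such sums overlapped between the groups.

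**Figure D4:**
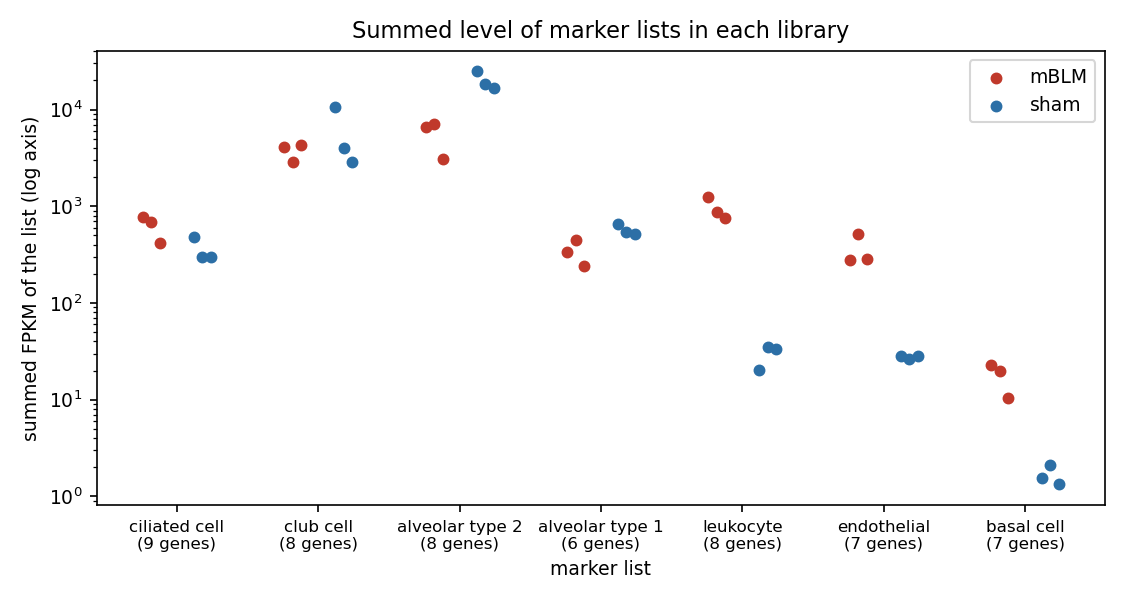
Summed FPKM (log axis) of each marker list in each library, with mBLM left of sham. The ciliated cell sums run from 421 to 775 FPKM in mBLM and from 296 to 476 FPKM in sham, a smaller shift than those of the leukocyte, endothelial and type 2 lists.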

How the data were processed

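Libraries were made from TRIzol-extracted total RNA with a stranded kit, per the labels' protocols. HISAT2, StringTie, FastQC 0.10.1 and mm10 are named per the submitters' processing notes. The sources used here do not give the annotation, the settings or whether quantification used strand. The authors deposited FPKM per protein-coding transcript, 24647 in each of 6 files, per the file headers. These sum to between 253146 and 300697 FPKM per library. At most 31.6% of low values of genes with 1 transcript lay within 0.05 of whole multiples of a common step, so reads could not be recovered, the depth is unknown and no counting interval is given.

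FPKM were summed by gene ID. The 12326 genes at or above 1 FPKM in 3 or more libraries were tested on log2(FPKM + 1) with limma 3.58.1 in R 4.3.3 (eBayes with a trend, two-sided, no covariate), with Benjamini-Hochberg adjustment over all of them and a threshold of 0.05. An exact permutation test of 3 against 3 cannot reach 0.05. Members and lists were chosen with earlier results of these data known. Named are the 9 singly named genes, every called member, the 3 most abundant of each name family, and from the other lists up to 3 called genes of smallest p or otherwise the most abundant. Other genes in the text were chosen after their values were seen. Alternatives were the pseudocount (0.1, 5), the filter (none, 5 FPKM), scaling, transcript choice, trend, library weights, replicate block and each library left out.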

Additional observations from a re-analysis of the deposited data

How the results depend on the processing

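The 13 calls among 51 tested motile axoneme genes became 8 of 26 with a filter of 5 FPKM, which did not lower their share. Of the 51, 7 were called with quantile normalization, 27 with library weights and 3 with the replicate block. The count ranged between 3 and 27 with each library left out. Over all genes, 1286 of 8325 rose with that filter. Of 12326, 1431 rose with quantile normalization, 2224 with library weights and 1359 with the replicate block, where the motile axoneme share was below that of all genes. The Ift count of 1 became 0 without a filter, with equal medians, with quantile normalization, with the highest transcript in place of the sum, with the replicate block, and without any 1 library (0 in each). Beside these counts of 0 in limma, 1 Ift gene had an unadjusted p under 0.05 with all libraries. Of all tested genes 2776 were called, and 1782 to 2630 with each library left out. Rises made up 67.4% of them, 51.1% with equal medians and 49.8% with quantile normalization. A pseudocount of 5 moved the motile axoneme median from 0.75 to 0.38, by construction, since it compresses low genes. No called member changed sign in any alternative run. The replicate numbers do not pair the animals by any label. Same-numbered libraries deviated from their group means with correlations of -0.00431, 0.0172 and 0.0391 across genes for numbers 1, 2 and 3. Library 1 of mBLM correlated best with sham library 2 (0.0209), while mBLM libraries 2 and 3 each correlated best with the sham library of their own number. Correlations this small cannot decide whether same-numbered libraries were paired. With Spag and singly named genes counted in, 14 of 67 passed, with a median of 0.74. The other causes were not tested.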
